A study of Mus musculus with 6 samples.

Results

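Fatty acid synthase (FASN) was overexpressed in mouse heart muscle at a high level in one transgenic line and at a low level in another, and the hearts of these lines were compared with each other. The comparison used 4 of the 6 arrays of the series, 2 per line, and took in all 45037 probe sets that are not controls of the array itself. A probe set is the group of short probes that reads 1 transcript, and 22519 were bright enough to be tested. All mice were male C57BL/6J. Both lines carried FASN under the alpha-MHC promoter, a promoter active in heart muscle cells, and the remaining 2 arrays held age-matched B6 controls without a stated transgene. Those controls served as the point of reference for genes that stood above control in one line and below it in the other. The labels state no age. Because each level is represented by 1 line only, FASN level and line cannot be told apart. The tissue label calls the heart transgenic in every group, controls included, so the titles and phenotype labels served to form the groups. Whether a group's 2 arrays stand for different animals is not stated, so p-values here measure only the spread between arrays, and that spread may be technical.

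FASN builds the saturated fatty acid palmitate from acetyl-CoA and malonyl-CoA, with NADPH as the reducing agent. The adult heart takes most of its fatty acids from the blood and burns them in mitochondria, and its own rate of synthesis is low compared with liver and fat. Palmitate is further desaturated by Scd1, elongated by Elovl6, stored as triglyceride or oxidised, and several of these steps are under the control of the PPAR family of nuclear receptors.

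Signals are linear and in arbitrary units, listed for both arrays of the high line first, then the low line, then the B6 controls, and differences are given on the scale log2(signal + 16), which understates the change of dim genes. The trimmed mean of every array was 300.002, and the highest signals lay between 29485 and 38207. Pearson's r across tested probe sets, which are not independent replicates, was 0.986 to 0.990 within groups and 0.968 to 0.976 between them. The low-line arrays stood apart on the control probe sets for 18S ribosomal RNA. The probe set at the 3′ end of 18S read 21573 and 19344 at high FASN, 9501 and 9273 at low FASN and 19142 and 18431 in B6. The 9 hybridization controls are transcripts added in fixed amounts. Their group means were higher at high than at low FASN by 0.18 to 0.33 on the log2 scale, with a median of 0.22. The lines overlapped on some of them. For example, a BioB control read 560 and 473 at high FASN and 410 and 488 at low FASN. The 3′ to 5′ signal ratio of Gapdh, a measure of RNA quality, was 0.905 and 0.881 at high FASN, 0.813 and 0.798 at low FASN, and 0.954 and 0.953 in B6. The same ratio of beta-actin was well above 1 on every array, at 2.52 and 2.40, 2.31 and 2.32, and 2.62 and 2.71. Heart muscle genes were bright on every array, with Myh6 between 27487 and 38169 and Nppa between 19210 and 26940. In bulk tissue, fewer cells of a type and less RNA per cell cannot be told apart.

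The promoter that drives the transgene belongs to the mouse gene Myh6, which encodes the alpha myosin heavy chain, and the transgene's product shares its name with the mouse gene Fasn. The start regions of both genes are shown because the transgene places FASN under the first in place of the second. Each window runs from 250 bases before to 50 bases after the annotated start (RefSeq, build GRCm38.p6, 5′ to 3′ on the gene's strand), and capitals mark the letters TATAAA. The labels do not say which piece of this promoter the transgene holds.

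Myh6 (chr14:54966558-54966857, minus strand): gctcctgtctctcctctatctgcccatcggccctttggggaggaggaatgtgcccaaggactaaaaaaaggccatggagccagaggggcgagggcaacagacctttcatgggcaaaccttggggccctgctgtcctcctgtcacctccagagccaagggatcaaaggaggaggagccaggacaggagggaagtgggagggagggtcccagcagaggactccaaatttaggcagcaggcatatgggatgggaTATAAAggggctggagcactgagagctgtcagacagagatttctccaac

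Fasn (chr11:120824498-120824797, minus strand): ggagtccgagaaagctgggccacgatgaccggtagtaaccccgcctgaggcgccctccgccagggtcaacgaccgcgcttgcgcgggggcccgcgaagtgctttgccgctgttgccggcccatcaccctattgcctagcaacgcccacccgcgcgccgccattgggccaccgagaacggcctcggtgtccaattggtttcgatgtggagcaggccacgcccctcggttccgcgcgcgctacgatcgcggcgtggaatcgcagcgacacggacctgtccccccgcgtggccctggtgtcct

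TATAAA, searched on both strands, occurred in 13.6% of 32851 such windows. It was found in the Myh6 window, beginning at position 2 after the annotated start and not before that start. The Fasn window did not hold it, and these letters say nothing of how strongly either start is used.

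Of the 22519 tested probe sets 4165 differed between the lines (18.5%; limma, Benjamini-Hochberg adjusted p below 0.05), with 2171 higher in the high line (9.64%) and 1994 lower (8.85%). Most differences were small. The median size among the called probe sets was 0.46 on the log2 scale, 2408 lay under 0.5, and 326 reached at least 1 (1.45%), 152 of them higher and 174 lower in the high line. Leaving out 1 low-line array gave totals of 1579 (array 1) and 1556 (array 2), in fits where the array left alone is assumed to vary like the other groups. The plot of difference against signal shows how calls followed brightness. When the tested probe sets were split into 10 bins of mean signal, 1.29% of the dimmest bin were higher and 1.47% lower, while in the brightest bin, above a mean signal of 2151, 29.1% were higher and 12.7% lower. The median difference of that brightest bin was 0.075 as deposited, 0.0063 after quantile normalization and 0.0080 after cyclic loess, so small differences among the brightest genes move with the scaling.

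**Figure D1:**
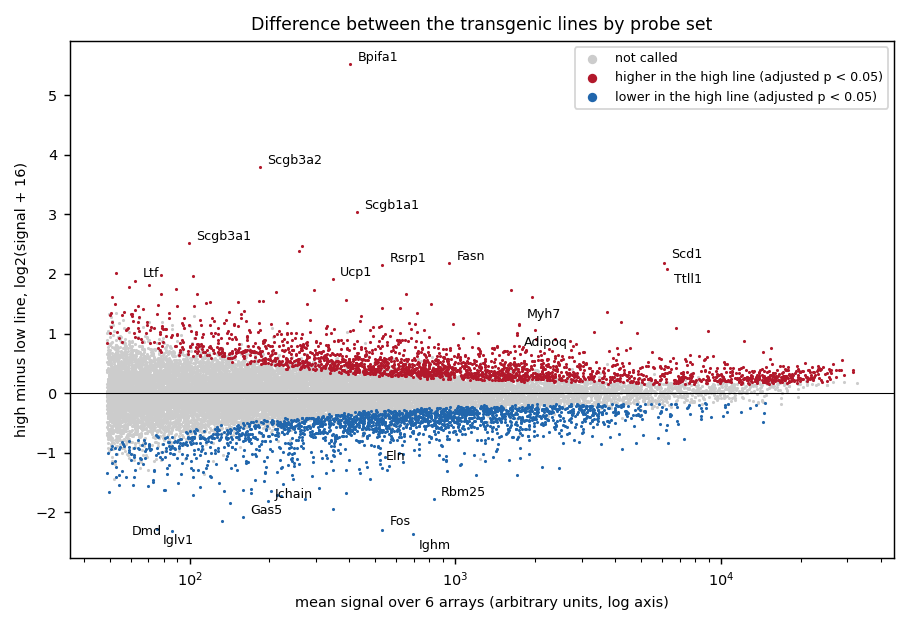
Each point is 1 of the 22519 tested probe sets, with its mean signal over the 6 arrays in arbitrary units on a log axis and the high minus low difference on the log2(signal + 16) scale. Red and blue points are the 2171 higher and 1994 lower probe sets at an adjusted p below 0.05, and the airway gene Bpifa1 lies highest at 5.52.

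The transgene's own gene separated the lines. The Fasn probe set read 2268 and 2104 at high FASN, 462 and 481 at low FASN, and 213 and 187 in B6. Both high-line arrays lay far above the low line and the low line above control, with no overlap. The lines differed by 2.18 ± 0.0927 (SE) on the log2 scale, a 4.52-fold ratio (limma, adjusted p = 6.09e-06). The labels do not name the species of the FASN cDNA, so transgenic and endogenous transcripts were not separated by this signal.

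Several genes that make, extend and desaturate fatty acids were higher in the high line. Of 18 tested genes of lipogenesis 9 were higher and 0 lower, with a median of 0.33. Over all 11512 named genes, each read by its brightest probe set, 11.3% were higher, 9.21% were lower and the median was 0.013. The count stayed at 9 whichever array was left out. Slc25a1, the citrate carrier that brings acetyl units out of mitochondria, was higher by 1.38 and Acly, which splits that citrate into acetyl-CoA, by 1.01. Acaca, which makes malonyl-CoA, read 525 and 626 at high FASN, 268 and 287 at low FASN and 168 and 181 in B6. It followed the order of Fasn, as did Elovl6 with 294 and 272, 134 and 107, and 36.9 and 38.7. Acacb, the acetyl-CoA carboxylase tied to mitochondria, was higher by 0.48 and the transcription factor gene Srebf1, a driver of lipogenic genes, by 0.56. Slc25a1, Acacb and Srebf1 were chosen after their values were seen.

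Scd1, the desaturase that makes oleate, was read by 2 probe sets. The brighter read 15254 and 13939 at high FASN, 3204 and 3216 at low FASN and 586 and 608 in B6, and the difference between the lines was 2.18 ± 0.0601 (limma, adjusted p = 2.78e-07). The dimmer differed by 2.39. Thrsp, a lipogenic protein of liver and fat, did not follow the order of Fasn. It read 2637 and 2476 at high FASN, 1391 and 1303 at low FASN and 2070 and 2273 in B6, so the low line lay below both other groups. Members that did not pass included Fads1 at 0.18, Me1 at 0.08 and Acss2 at 0.06.

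Several markers of fat tissue were higher as well. Of 10 tested white adipocyte markers 5 were higher and 0 lower, with a median of 0.58 (3 higher without high-line array 1, and, leaving out a low-line array, 3 without array 1 and 4 without array 2). Their summed signal was 45964 and 42306 at high FASN, 33788 and 34574 at low FASN and 22875 and 22500 in B6. Adipoq, the fat cell hormone adiponectin, read 3485 and 3181, 1678 and 1681, and 138 and 97.5 in the same order of groups. Pck1, a glyceroneogenic enzyme of fat, was higher by 1.73, Pparg, the nuclear receptor of fat cell development, by 0.95 and Car3, an abundant carbonic anhydrase of fat, by 0.57. Cidec at 0.66, Cebpa at 0.60, Fabp4 at 0.15, Lipe at 0.24 and Retn at 0.28 did not pass, and Lep and Slc7a10 were below the filter. Cfd and Plin1 were not analysed here.

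Of 7 tested brown fat markers 5 were higher and 1 lower, with a median of 0.26 that fell to 0.021 with quantile normalization, where 3 were higher. Without low-line array 1 the higher count was 2 and without array 2 it was 3; leaving out either control array or high-line array 1 also gave 3. Ucp1, the uncoupling protein of brown fat, read 846 and 799 at high FASN, 185 and 232 at low FASN and 6.23 and 10.3 in B6, a difference between the lines of 1.91 (limma, adjusted p = 0.000215). Cidea, a lipid droplet protein, was higher by 0.79. Cox8b was higher by 0.23 and stood at -0.02 with quantile normalization. It read 21755 and 20314, 17666 and 18137, and 19713 and 19713, so it was bright in control hearts too, unlike Ucp1. Such members enter the counts and the summed signal of the list, which therefore do not read brown fat alone. The summed signal of the list, 53064 and 47243 at high FASN, 41693 and 42970 at low FASN and 46660 and 45914 in B6, did not follow the order of Fasn. The part of fat tissue in the sampled hearts in the lipogenic differences was not tested.

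The 4 largest rises of the high line belonged to secreted proteins of the airway lining. Bpifa1 read 1175 and 1184 at high FASN, a dim 11.7 and 8.62 at low FASN and 12.8 and 28.6 in B6. It was thus bright on both high-line arrays alone, and the difference was 5.52 ± 0.243 on the log2 scale (limma, adjusted p = 6.89e-06). Scgb3a2 followed at 3.79, Scgb1a1 at 3.04 and Scgb3a1 at 2.51, all 3 secretoglobins of club cells. Scgb1a1 was the member that was also above control in the low line, with 1130 and 1165, 129 and 122, and 6.19 and 2.47. Of 7 tested airway and lung markers 5 were higher and 0 lower, also in every fit that left out 1 array, and the summed signal was 3284 and 3519 at high FASN, 361 and 302 at low FASN and 280 and 265 in B6. Sftpc, the defining surfactant protein of the lung's alveoli, stood at 0.17 and did not pass, and Sftpb stood at 0.87 (limma, adjusted p = 0.154). The other 8 of 15 listed markers were below the filter, among them the alveolar genes Sftpa1 and Ager at mean signals of 10.5 and 10.9, the ciliated cell regulator Foxj1 at 45.4 and the mucin Muc5b at 11.6. Ltf, the secreted iron-binding protein lactoferrin, read 134 and 135, 25.1 and 24.4, and 22.1 and 33.6, and was higher by 1.89, and it was the 1 higher gene among 6 tested neutrophil markers. The neutrophil genes S100a8, S100a9, Lcn2 and Ngp lay between -0.17 and 0.05 and did not pass.

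For most of the largest differences it was the low line that stood away from control. Of the 152 probe sets that were higher in the high line by at least 1, control lay within 0.5 of the high line in 94 and within 0.5 of the low line in 27. Of the 174 that were lower by at least 1, control lay within 0.5 of the high line in 114 and of the low line in 23. Among the rises, Ttll1, a subunit of a tubulin-modifying enzyme, read 8806 and 8749 at high FASN, 2094 and 2028 at low FASN and 7974 and 7914 in B6. The high line and control thus lay close together and the low line far below them, a difference of 2.08 ± 0.048 between the lines (limma, adjusted p = 1.07e-07). The name of that probe set ends in x_at, by which the maker marks probes that may also bind other transcripts, and the other Ttll1 probe set differed by 0.93. Rsrp1, a gene for a serine- and arginine-rich nuclear protein, read 693 and 701, 148 and 143, and 756 and 746, while its other probe sets stood at -0.35 and -0.23 and did not pass. Agtrap, a binding partner of the angiotensin receptor, and Tmppe, a membrane phosphoesterase gene, showed the same order at differences of 1.98 and 1.96, with low-line signals of 7.30 to 36.6 that are near background. The brighter Agtrap probe set differed by 0.39 (limma, adjusted p = 0.0768) and the other Tmppe probe set by 0.41 (limma, adjusted p = 0.252), and neither passed.

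Among the falls, Rbm25, a regulator of splicing, read 406 and 500 at high FASN, 1612 and 1565 at low FASN and 452 and 442 in B6. Of its 6 tested probe sets 5 were lower and the sixth stood at 0.02. Hnrnpu, a nuclear RNA-binding protein, read 138 and 101, 411 and 433, and 94.9 and 100.1 on a dim probe set, with a difference of -1.71. Its 3 brightest probe sets lay between -0.11 and 0.05 and did not pass, while the remaining one was also lower, at -0.45. Dmd, the dystrophin gene, was lower on all 3 of its tested probe sets, at -2.31 on a dim one and at -0.67 and -0.93 on the brighter ones. Snhg14, a host gene of small nucleolar RNAs, was lower, at -1.67, and Psme4, a proteasome activator, at -1.63 on a dim probe set whose call was lost in 3 of the 6 fits that left out 1 array. The plot of the largest differences sets all arrays of these genes side by side.

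**Figure D2:**
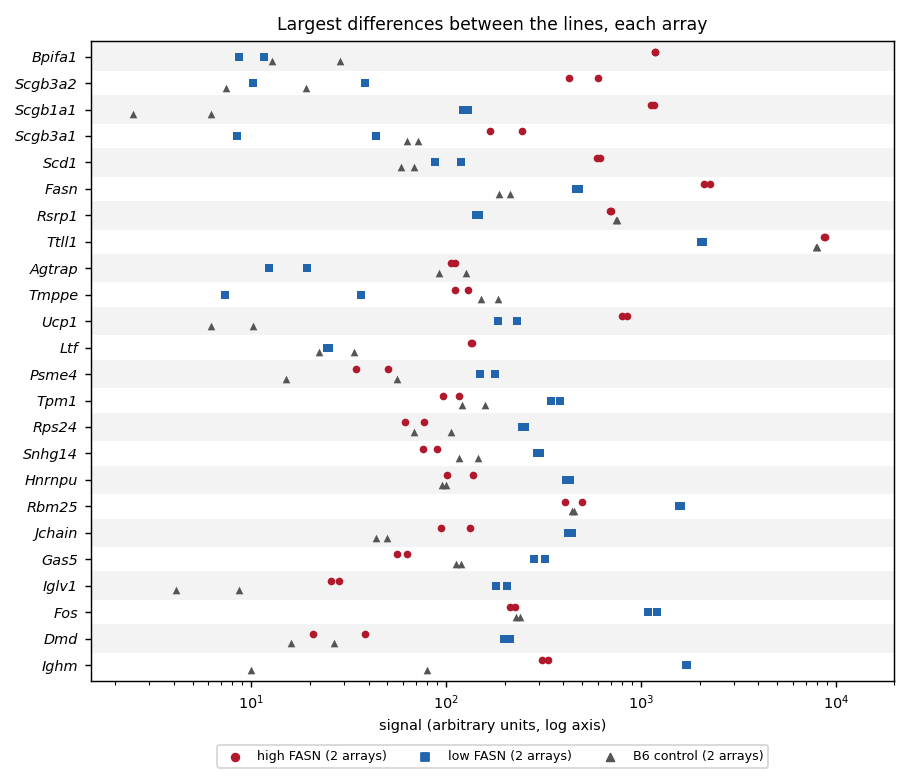
Signal of each array in arbitrary units on a log axis for the 12 largest rises and 12 largest falls of the high against the low line, with 1 probe set per gene, circles for high FASN, squares for low FASN and triangles for control. Bpifa1 is bright in the high line alone, while Fos, Rbm25 and Dmd are bright in the low line alone.

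Contractile and mitochondrial genes were mostly higher in the high line at the deposited scaling, and much of this went away when the arrays were given equal distributions. Of 26 sarcomere genes 18 were higher and 2 lower, with a median of 0.36; with quantile normalization 10 were higher and 5 lower and the median was 0.073. Without low-line array 1, 12 were higher. Among 48 genes of oxidative phosphorylation, 33 passed as higher and 0 as lower, with a median of 0.23; quantile normalization gave 4 higher, 5 lower and a median of 0.0089, and cyclic loess gave 14 higher, 2 lower and a median of 0.093. The 33 became 4 without low-line array 1 and 10 without array 2. Cytosolic ribosomal protein genes behaved likewise, with 24 of 40 higher and 1 lower at a median of 0.21, and 5 higher and 3 lower at 0.047 with quantile normalization; 4 were higher in each fit without 1 low-line array. Group means of the hybridization controls, at a median of 0.22 between the lines, differed by a similar amount. Single arrays of the lines overlapped on some of these controls. The part of the controls in these rises was not tested.

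Single genes of the sarcomere differed by more than this. Myh7, the slow beta myosin heavy chain, read 2692 and 2497 at high FASN, 1129 and 1208 at low FASN and 1444 and 1487 in B6. The high line lay above control and the low line below it, and the lines differed by 1.14 ± 0.0672 (limma, adjusted p = 2.94e-05; 1.16 with quantile normalization). Trim54, a ubiquitin ligase of the sarcomere, was higher by 1.05 with control above both lines, at 2005 and 1912, 892 and 979, and 3021 and 3165. Actn2, the Z-disc protein alpha-actinin, was higher by 0.48, the M-band gene Myom2 by 0.45, and the ventricular light chain Myl2 by 0.41. Myl2 and Myom2 stood at 0.12 and 0.20 with quantile normalization.

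Genes of cardiac load did not share a direction. Of 11 natriuretic and fetal genes 3 were higher and 3 lower, with 2 and 1 without low-line array 1 and 2 and 2 without low-line array 2. Nppa, atrial natriuretic peptide, read 26940 and 25161, 19282 and 19210, and 20510 and 20774, higher by 0.44 and by 0.14 with quantile normalization. Nppb, brain natriuretic peptide, read 7681 and 7010, 9438 and 9284, and 6405 and 6141, lower, at -0.35. Acta1, the skeletal actin gene of the fetal heart, was also lower, at -0.33. Of 10 atrial markers 2 were higher, Nppa and the atrial light chain Myl4 at 0.26 (1 higher with quantile normalization and in each fit without 1 low-line array, 4 without high-line array 2). Of 6 ventricular markers 3 were higher and 1, the regulator Hey2 at -0.73, was lower (0 lower in each fit without 1 low-line array). Among calcium-cycling genes, 4 of 14 were higher and 2 lower (2 and 1 in each fit without 1 low-line array, 7 and 1 without high-line array 2). With quantile normalization, ventricular markers stood at 1 higher and 1 lower, and calcium-cycling genes at 2 higher and 4 lower. Cyclic loess gave 3 and 1 for the ventricular markers and 3 and 2 for the calcium-cycling genes. Jph2, which anchors the sarcoplasmic reticulum to the T-tubule, was higher by 0.72 and Camk2d, the calcium-dependent kinase, lower, at -0.74. Pln, phospholamban, stood at 0.18 (limma, adjusted p = 0.0837) and at -0.15 with quantile normalization (adjusted p = 0.00547). Of 14 ion channel genes 4 were higher and 1 lower (2 higher without low-line array 1). Kcna5 and Kcnh2, potassium channels of repolarisation, were higher by 0.99 and 0.90, and Kcne1, a potassium channel subunit, was lower, at -1.47, with 151 and 110 at high FASN, 355 and 420 at low FASN and 43.8 and 61.6 in B6.

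Genes that handle fatty acids leaned to the high line. Of 14 PPAR-related and other nuclear receptor genes 6 were higher and 1 lower, with a median of 0.33 (3 higher without low-line array 1). Ppara, the receptor that drives fatty acid oxidation genes, read 1055 and 1000 at high FASN, 595 and 565 at low FASN and 1455 and 1478 in B6. Its partner Rxra was higher by 0.77 and Esrra, an orphan receptor of mitochondrial genes, by 0.43. The high line differed from control by -0.01 for Rxra and -0.02 for Esrra, and the low line lay below control. The coactivator gene Ppargc1a was the lower member, at -0.46 on its brightest probe set and lower on all 5, and Ppargc1b was higher by 0.40.

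Of 21 fatty acid oxidation genes 11 were higher and 1 lower, with a median of 0.22. The higher count was 7 with quantile normalization and 6 in each fit without 1 low-line array. Eci1, an isomerase for unsaturated fatty acids, was higher by 0.62 (0.49 with quantile normalization). Hadha and Hadhb, the subunits of the trifunctional protein, were higher by 0.35 and 0.44. Another bright Hadhb probe set read 17336 and 16587, 15856 and 16780, and 19843 and 19944. It differed by 0.06 between the lines and did not pass. Of 23 genes of palmitate uptake, storage and signalling 6 were higher and 1 lower (2 higher without low-line array 1 and 3 without array 2). Acot2, a mitochondrial acyl-CoA thioesterase, read 3588 and 3494, 2028 and 1961, and 3017 and 2954, and was higher by 0.82, and the lipid droplet gene Plin5 was higher by 0.52. Cd36, the fatty acid transporter, stood at 0.20 (limma, adjusted p = 0.0635) and Pdk4, which limits glucose oxidation, at -0.02.

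In carbohydrate metabolism, 8 of 17 glycolysis genes were higher and 0 lower, at a median of 0.26 (0.19 with quantile normalization, 7 higher and 2 lower; 5 and 4 higher without low-line array 1 and array 2 in turn). They included the phosphofructokinase gene Pfkm at 0.45 and the glucose transporter gene Slc2a1 at 0.41. Of 19 citric acid cycle genes 5 were higher and 2 lower, and the median of 0.12 turned to -0.013 after quantile normalization and to -0.012 after cyclic loess. Leaving out control array 1, control array 2 or high-line array 1 gave 3 higher, and leaving out either low-line array gave 2. Ogdh, a subunit of the 2-oxoglutarate dehydrogenase, read 6493 and 6250, 3209 and 3095, and 5091 and 5031, and was higher by 1.01 (0.99 with quantile normalization). Idh3b, an isocitrate dehydrogenase subunit, was lower, at -0.49 on its brightest probe set, with control above both lines. A dimmer Idh3b probe set read 783 and 900, 880 and 983, and 418 and 442, with control below both lines. It differed by -0.15 between the lines and another by 0.02, and neither passed.

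Several collagen transcripts were less abundant at high than at low FASN. Of 21 tested members 0 were higher and 9 lower, with a median of -0.31 that stayed between -0.30 and -0.29 under the other 3 scalings; 5 were lower in each fit without 1 low-line array. Col4a5, a basement membrane collagen, read 1402 and 1568 at high FASN, 3125 and 2923 at low FASN and 1166 and 1160 in B6, a difference of -1.02 ± 0.0712 (limma, adjusted p = 6.71e-05). The lines did not overlap, and the high line lay just above control. Col3a1, the fibrillar collagen that is abundant in scar, read 10461 and 9809, 13174 and 13571, and 3941 and 4179, and Col1a1 read 491 and 507, 772 and 737, and 259 and 263. For both genes control lay below both lines. A dimmer Col1a1 probe set read 195 and 182 at high FASN and 178 and 176 at low FASN, and its difference of 0.08 did not pass. Eln, elastin, followed the order of Col3a1 with 463 and 439, 921 and 926, and 202 and 180, a difference of -1.01. Of 17 elastic fibre genes, though, only Eln and the microfibril gene Mfap5 at -0.78 were called.

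Other matrix genes went both ways. Of 19 matricellular proteins and proteoglycans 4 were higher and 3 lower (2 and 2 without low-line array 1, 2 and 1 without array 2). Postn, a matrix protein of activated fibroblasts, was lower, at -0.41, and the proteoglycan gene Vcan at -0.48, while Bgn, biglycan, was higher by 0.61 and Tnxb, tenascin X, by 0.60. Of 14 matrix proteases and inhibitors 3 were higher and 4 lower, with 1 higher and 0 lower in each fit without 1 low-line array, 1 and 4 without high-line array 1, and 4 and 2 without high-line array 2. Timp4, a metalloproteinase inhibitor of the heart, was higher by 0.71 with control above both lines at 3097 and 3132, and Mmp2, a gelatinase, was lower, at -0.34. Among 20 TGF-beta pathway genes 4 were higher and 1 lower (2 and 1 higher without low-line array 1 and array 2 in turn), with the inhibitors of differentiation Id3 and Id1 at 0.67 and 0.52.

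Cell type markers stood as follows. Of 15 fibroblast markers 2 were higher and 4 lower at a median of -0.16 (1 and 2 in each fit without 1 low-line array). The markers of the list also held Col1a1 and Postn, and the summed signal was 64156 and 64329 at high FASN, 62515 and 63824 at low FASN and 58005 and 56126 in B6. Of 15 smooth muscle and pericyte markers 4 were higher and 0 lower (4 and 2 with quantile normalization, and 0 and 1 higher without low-line array 1 and array 2 in turn). Myh11, smooth muscle myosin, was higher by 0.47, and Acta2, smooth muscle actin, stood at -0.07 (limma, adjusted p = 0.387). Of 17 endothelial markers 3 were higher and 4 lower, with the receptor Kdr at 0.47 and the sialomucin Emcn at -0.72. Without low-line array 1 the counts were 1 and 2, without array 2 they were 2 and 2, and without high-line array 2 they were 1 and 4. Of 14 mesothelial markers 1, Upk3b at -0.30, was lower, and it was not called under any of the other 3 scalings. Of 14 skeletal muscle markers 5 were tested, of which 1 was higher and 1 lower (0 lower without high-line array 1 or low-line array 2), and Myh1, Myh4, Actn3 and Tnnt3, genes of fast muscle fibres, were below the filter at mean signals of 10.6, 21.2, 7.14 and 11.4.

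Several genes of immune cells were lower in the high line. Of 18 macrophage markers 0 were higher and 7 lower, with a median of -0.26 that lay between -0.27 and -0.24 under the other scalings; 4 were lower in each fit without 1 low-line array. The summed signal was 16976 and 16769 at high FASN, 20640 and 21188 at low FASN and 20008 and 19660 in B6. Lyz2, the lysozyme of myeloid cells, read 3978 and 3928, 5746 and 5912, and 4520 and 4203, and was lower, at -0.56. Adgre1, the macrophage surface protein F4/80, was lower, at -0.62, and the complement gene C1qc at -0.74.

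Ighm, the heavy chain of immunoglobulin M, read 333 and 310 at high FASN, 1711 and 1729 at low FASN and 9.91 and 80.04 in B6. The control arrays differed from each other more than the arrays of either line did. The difference between the lines was -2.36 ± 0.452 (limma, adjusted p = 0.00734), called in 4 of the 6 fits that left out 1 array. A second Ighm probe set differed by -1.78, and 2 dimmer ones, at -0.35 each, did not pass. Iglv1, a light chain gene, was lower, at -2.28, and Jchain, which joins immunoglobulin M chains, at -1.81. Of 8 tested B and plasma cell markers 2 were lower and 0 higher (1 lower in each fit without 1 low-line array). Ms4a1, the B cell surface protein CD20, stood at -0.42 and did not pass, and Cd79a and Pax5 were below the filter at mean signals of 11.6 and 23.2. Of 14 T and NK cell markers 1 was bright enough to be tested, and it did not pass.

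Of 20 interferon and antigen presentation genes 6 were higher and 2 lower, at a median of 0.17; 1 was higher in each fit without 1 low-line array, and the lower count was between 0 and 2 with 1 array left out. Of 14 complement and chemokine genes 1 was higher, the eosinophil attractant Ccl11 at 0.85, and 1 lower, Ccl9 at -0.37, both with control above both lines. With 1 array left out these counts were 1 or 2 and 0 to 2. Of 15 cell division genes 3 were lower, the replication clamp Pcna at -0.36, Cdc20 at -0.88 and Ccnb2 at -0.88, and 1 was lower in each fit without 1 low-line array.

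Several immediate early genes, whose transcription starts within minutes of a stimulus, were lower in the high line. Of 27 tested members 2 were higher and 11 lower, with a median of -0.19 that stayed negative under the other 3 scalings; 7 were lower in each fit without 1 low-line array, and 4 were higher without high-line array 2. Fos, a subunit of the AP-1 transcription factor, read 214 and 227 at high FASN, 1205 and 1083 at low FASN and 227 and 240 in B6. The high line lay just under control and the low line far above both, a difference of -2.29 ± 0.103 between the lines (limma, adjusted p = 7.05e-06). Egr1, a zinc finger factor, read 758 and 924, 2001 and 1889, and 387 and 327, with both lines above control and a difference of -1.20. The phosphatase gene Dusp1 was lower, at -0.45, the orphan receptor gene Nr4a3 at -1.16 and the cytokine signalling inhibitor gene Socs3 at -1.07. Jun, the partner of Fos, went the other way with 1418 and 1321, 838 and 887, and 1498 and 1431, higher by 0.66, and Klf4 was higher by 0.45. Junb, Atf3, Myc, Nr4a2 and Ccn1 lay between -0.20 and 0.06 and did not pass. Nr4a3, Socs3 and Klf4 were chosen after their values were seen.

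The start regions of Fos and Nr4a3 are shown for their matches to TGACG, the core that cyclic AMP response factors read. Capitals mark TGACG on either strand and TATAAA; the windows have the same length and build as above.

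Fos (chr12:85473640-85473939, plus strand): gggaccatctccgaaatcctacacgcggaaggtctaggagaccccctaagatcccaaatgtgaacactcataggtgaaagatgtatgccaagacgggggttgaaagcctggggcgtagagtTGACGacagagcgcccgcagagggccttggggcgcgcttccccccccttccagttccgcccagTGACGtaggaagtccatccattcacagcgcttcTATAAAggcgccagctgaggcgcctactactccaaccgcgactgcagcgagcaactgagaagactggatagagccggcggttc

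Nr4a3 (chr4:48045055-48045354, plus strand): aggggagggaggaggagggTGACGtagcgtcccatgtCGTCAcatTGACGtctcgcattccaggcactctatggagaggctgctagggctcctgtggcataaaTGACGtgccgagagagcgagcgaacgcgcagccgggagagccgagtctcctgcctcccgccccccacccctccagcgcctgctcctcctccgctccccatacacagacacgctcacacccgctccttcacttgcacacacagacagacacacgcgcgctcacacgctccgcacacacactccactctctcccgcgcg

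The Fos window held TGACG 2 times and TATAAA 1 time, and the Nr4a3 window held TGACG 4 times. TGACG, searched on both strands like every motif, occurred in 20.8% of the 32851 windows. Among the other genes looked up, the Junb and Fosb windows held it 1 time each, and those of Jun, Dbp, Per3, Nr1d2, Acly, Acaca, Myh6 and Fasn held none. The AP-1 site TGACTCA, present in 5.20% of windows, and the CArG box, present in 1.63%, were in neither window shown, which says only that these letters are not in 300 bases. A match is a description and was not set against the differences by any test.

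Clock genes followed no single direction. Of 18 tested members 2 were higher and 4 lower, and the count of lower genes stayed at that number whichever array was left out, while the count of higher genes was 0 or 1. Dbp, an output factor of the clock, read 2688 and 2736 at high FASN, 4870 and 4904 at low FASN and 2974 and 3024 in B6, lower, at -0.85. Per2, a repressor of the clock, read 81.4 and 95.4, 231 and 227, and 264 and 265, so that here the high line lay below control and the low line near it. Nr1d2 was lower, at -0.76. The clock activator gene Arntl stood at 0.37 and Cry1 at -0.10, and neither passed. The labels do not state the hour at which hearts were taken. Of 15 glucocorticoid-responsive genes 6 were higher and 1 lower. Ddit4, an inhibitor of mTOR signalling, read 1034 and 1058, 474 and 446, and 1533 and 1332, higher by 1.16, and Klf15 was higher by 0.52. Zbtb16, a zinc finger repressor, read 452 and 463, 1048 and 995, and 2394 and 2399, lower, at -1.13 with control far above both lines.

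Several genes of protein folding in the endoplasmic reticulum (ER) were lower in the high line. Of 22 ER stress genes 1 was higher and 10 lower, with a median of -0.23 that lay between -0.26 and -0.21 under the other scalings; 7 and 5 were lower without low-line array 1 and array 2 in turn. Manf, a secreted ER stress factor, read 985 and 964 at high FASN, 1861 and 1905 at low FASN and 1449 and 1465 in B6. Control lay between the lines without overlap, and the lines differed by -0.94 ± 0.0609 (limma, adjusted p = 4.79e-05). The ER chaperone gene Hsp90b1 was lower, at -0.52, the disulphide isomerase gene Pdia3 at -0.65 and the co-chaperone gene Dnajc3 at -0.57. Hspa5, the main ER chaperone BiP, stood at 0.04, and Ddit3 and Xbp1 stood at -0.16 and 0.03. None of these 3 passed.

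Of 24 cytosolic heat shock genes 7 were higher and 3 lower, a split that turned to 4 and 8 with quantile normalization and 4 and 7 with cyclic loess. Without low-line array 1 it was 2 and 2, and without array 2 it was 3 and 1. The median of -0.012 became 0.0013 with median centring. Hsp90aa1, an inducible chaperone, read 3849 and 4088, 7033 and 7230, and 7829 and 7907, lower, at -0.84. The small heat shock genes of muscle, Hspb1 and Hspb6, were higher by 0.54 and 0.38. Of 31 proteasome genes 6 were higher and 6 lower, and without low-line array 1 and array 2 in turn the higher count was 2 and 1 and the lower count 1 and 1. Without either control array in turn 3 were higher. Of 14 atrophy and mitophagy genes 7 were higher and 0 lower (3 higher in each fit without 1 low-line array), with Foxo4, a transcription factor of wasting, at 1.25 and Trim63, the ligase MuRF1, at 0.52. Of 27 antioxidant genes 5 were higher and 2 lower, with the secreted glutathione peroxidase gene Gpx3 at 0.45. Quantile normalization gave 4 higher and 4 lower, and without low-line array 1 and array 2 in turn 1 and 2 were higher. Of 18 insulin and IGF genes 1 was higher and 4 lower, with Igf1 at -0.35 (0 lower in each fit without 1 low-line array). Of 14 cholesterol synthesis genes 2 were higher and 0 lower, and both calls were lost in each fit without 1 low-line array. None of 4 ketone body, 6 Schwann cell or 2 erythroid genes passed. The plot of list shares sets these counts beside the share over all named genes.

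**Figure D3:**
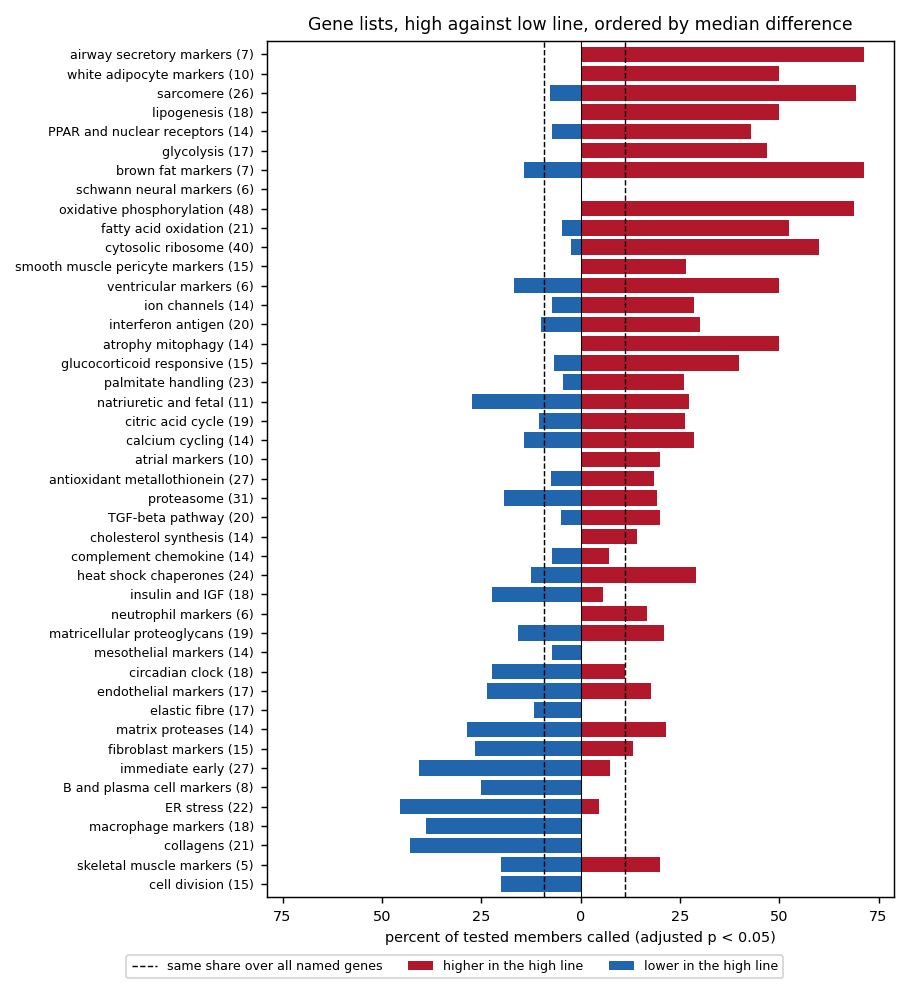
For each gene list with at least 5 tested members (number in brackets), red bars give the percent of members higher and blue bars the percent lower at high FASN, and dashed lines give the same share over all 11512 named genes, 11.3% and 9.21%. Lists are ordered by median difference; the red bars of sarcomere, oxidative phosphorylation and ribosome shrink with quantile normalization, while blue bars of the same lists grow, and the blue bars of collagens and macrophage markers do not shrink.

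Probe sets that stood above control in one line and below it in the other were sought in both contrasts with control, which share the same control arrays. In the high line 3246 probe sets differed from control (14.4%), 1850 above it (8.22%) and 1396 below it (6.2%), and 380 differed by at least 1 on the log2 scale (1.69%). In the low line 5494 differed from control (24.4%), 3052 above it (13.6%) and 2442 below it (10.8%), and 626 differed by at least 1 (2.78%). In 98 the calls had opposite signs (0.435%), with 56 above control in the high line and below it in the low line (0.249%) and 42 the reverse (0.187%). Since these were chosen for their opposite signs, their values are given as a description with no test, and the difference between the lines follows from the choice. Their number moved with single arrays, being 16 and 15 without control array 1 and array 2 in turn, 34 and 30 without low-line array 1 and array 2 in turn, and 263 without high-line array 2. When the lines were compared with different control arrays, it was 18 under one assignment and 22 under the other.

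The 56 that were up in the high and down in the low line had a median signal of 2949, and 26 were above 5000. Of the 56, 14 were called under all 3 other scalings and 14 under none. The 42 of the reverse kind had a median signal of 1525, 2 above 5000, with 25 called under all 3 and 3 under none. The smaller of the pair of differences from control was modest, with a median of 0.25 and a highest value of 0.54 in the first group, and 0.27 and 0.81 in the second.

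Up in the high and down in the low line, Clec3b, the plasminogen-binding protein tetranectin, read 1019 and 1021, 448 and 446, and 696 and 622. It was 0.62 above control in the high line and -0.54 from it in the low line. Smco1, a small membrane protein gene, read 757 and 746, 333 and 341, and 487 and 492, and the class IIa histone deacetylase gene Hdac5 read 663 and 675, 319 and 286, and 459 and 542. In each of these genes both arrays of a line agreed closely and control lay in the middle. The opposite calls of Clec3b and Smco1 held whichever array was left out, while that of Hdac5 did not. Prxl2a, a peroxiredoxin-like gene, stood at 0.38 in the high and -1.28 in the low line on 1 probe set. Its other probe set lay below control in both lines, at -0.47 and -1.35. Mgll, the lipase that releases the last fatty acid of a triglyceride, stood at 0.41 and -0.37 on 1 of 3 probe sets. In the low line the brightest Mgll probe set stood at -0.53 from control and the third at 0.18, which was not called, and in the high line neither was called against control. Neurl2, a ubiquitin ligase adaptor, stood at 0.40 and -0.45, and the repressor gene Klf12 at 0.38 and -0.55, with another Klf12 probe set lower in the high line. Grb2, an adaptor of growth factor signalling, stood at 0.50 and -0.72 on 1 probe set, while its brighter one differed by -0.07 between the lines and did not pass. The opposite call of Grb2 was lost under all 3 other scalings, and that of Hdac5 was kept with cyclic loess only. Those of Prxl2a, Mgll, Neurl2, Klf12 and Grb2 were each lost in some of the fits that left out an array. Myh7, Ogdh, Acot2, Kcnh2, Id3 and Trim63, described above, belong to this group too, and of these Kcnh2 was not called under any of the other 3 scalings. With median centring the opposite calls of Acot2 and Trim63 were lost as well. That of Ogdh held whichever array was left out. Those of Myh7, Acot2, Kcnh2, Id3 and Trim63 were each lost in some of these fits.

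Down in the high and up in the low line, Nfkbiz, an inducible inhibitor of the NF-kappaB family, read 131 and 134, 391 and 384, and 213 and 225, with -0.66 in the high and 0.78 in the low line. Per3, a clock gene, read 159 and 166, 511 and 537, and 234 and 232, and its other 3 probe sets, all dimmer, did not pass. Fgl2, a membrane protein that can activate prothrombin, read 963 and 1166, 2366 and 2262, and 1348 and 1459. Control lay between the lines in all 3 genes. Nfkbiz, Fgl2 and Khdc4 each had other probe sets that were not called between the lines. Srsf1, a splicing factor, read 928 and 1060, 1950 and 1947, and 1342 and 1345 on the probe set with the largest change, and all 6 of its tested probe sets were lower in the high line. Son, a splicing cofactor, stood at -0.47 and 0.57, with 2 of 7 probe sets lower and the rest not called between the lines. Khdc4, an RNA-binding protein gene, stood at -0.45 and 0.99, and Bdp1, a subunit of the RNA polymerase III initiation factor, at -0.41 and 0.48. Gas5, a non-coding host gene of small nucleolar RNAs, read 55.6 and 63.0, 322 and 284, and 119.9 and 112 on 1 probe set. Its 2 brightest probe sets stood at 0.05 and -0.11 between the lines and did not pass. Both were called above control in each line, at 0.41 and 0.29 in the high line and 0.36 and 0.40 in the low line. A further dim Gas5 probe set was lower, at -1.61 between the lines, but stood at -0.01 from control in the high line. The opposite call of the Srsf1 probe set given above held whichever array was left out. Those of Nfkbiz, Per3, Fgl2, Son, Khdc4, Bdp1 and Gas5 were each lost in some of these fits.

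**Figure D4:**
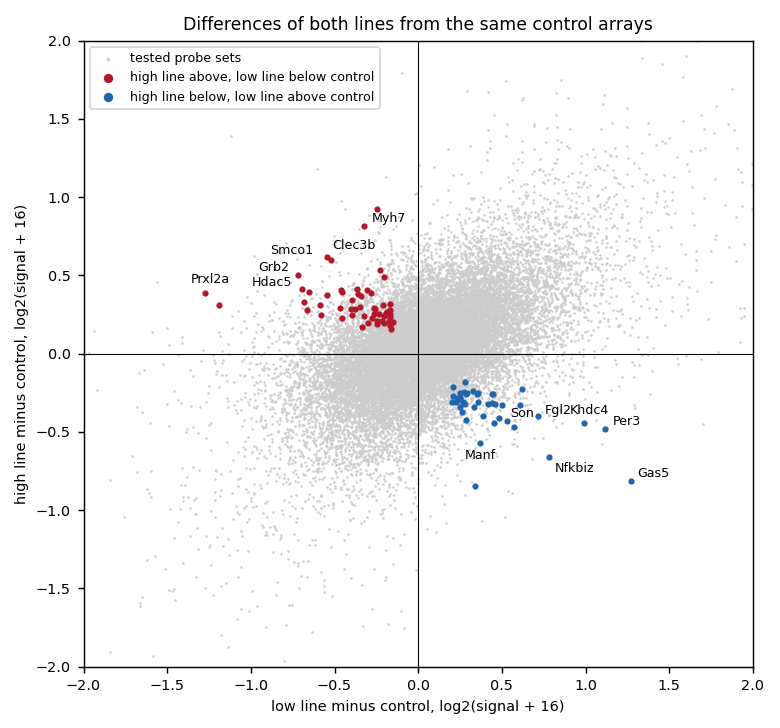
Difference of the low line (x axis) and the high line (y axis) from the same control arrays, on the log2(signal + 16) scale, for the 22519 tested probe sets in grey, with both axes shown from -2 to 2. Red points are the 56 probe sets above control in the high and below it in the low line and blue points the 42 of the reverse kind, chosen by calls with opposite signs.

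Probe sets of the same gene did not always share a direction. Of 577 genes with at least 2 called probe sets, 58 (10.1%) had probe sets called in both directions between the lines. These counts were made at the deposited scaling, where small differences among the brightest genes move with the scaling. They were not repeated under the other scalings. In 36 of these the brightest called probe set was higher at high FASN, and in 22 it was lower. The dimmest was lower in 37 and higher in 21, with a median brightness ratio of 6.43 between brightest and dimmest. Myh6, whose promoter drives the transgene, was one. Its bright probe set read 38169 and 34521 at high FASN, 27487 and 27876 at low FASN and 30897 and 30150 in B6, higher by 0.39 (0.05 and not called with quantile normalization). Its dimmer probe set read 2006 and 1833, 3394 and 3511, and 2228 and 2260, lower, at -0.84. Atp2a2, the calcium pump SERCA2, had its 3 brightest probe sets higher by 0.20 to 0.44, and 2 much dimmer ones stood at -0.80 and -1.15, both called lower. Tpm1, tropomyosin, was higher by 0.46 on its brightest probe set and lower, at -1.64 on one that read 116 and 96.6, 384 and 344, and 158 and 121. Rps24, a ribosomal protein gene, had its 2 brightest probe sets higher by 0.17 and 0.23, 2 more near 0, and a dim one at -1.65. Atp5c1, an ATP synthase subunit gene, showed the same split, as did Pde4dip, Plxdc2 and Sec61a1, which were chosen after their values were seen. Rbm39 and Trpm7, also chosen after their values were seen, showed the reverse split. Their brightest called probe sets stood at -0.35 and -0.61 and their dimmest at 0.83 and 1.06. Which part of each transcript a probe set reads was not determined here.

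**Figure D5:**
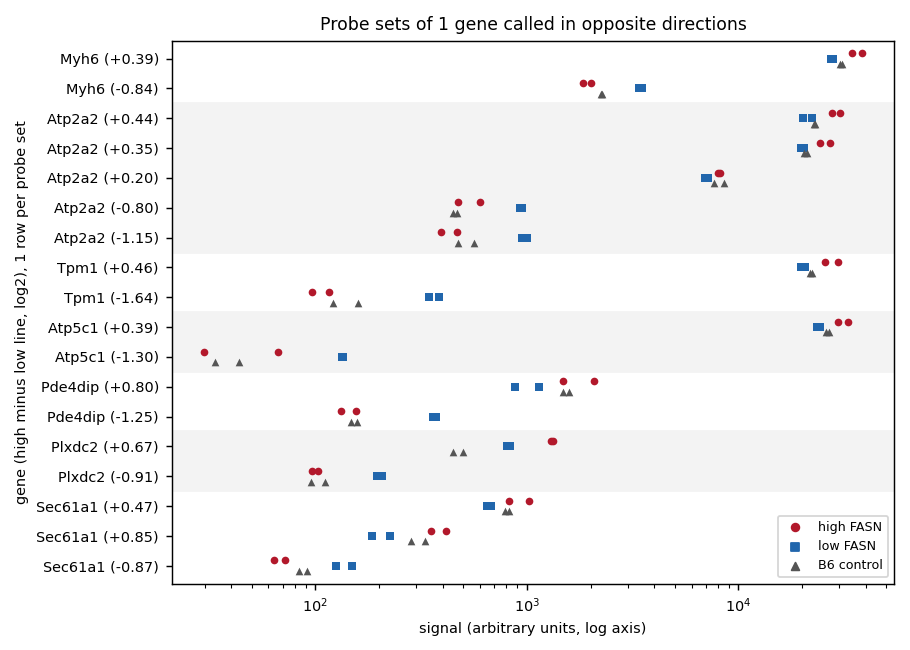
Signal of each array in arbitrary units on a log axis for called probe sets of 7 genes with calls in both directions, 1 row per probe set, with the high minus low difference on the log2(signal + 16) scale in brackets. In every gene shown the dimmest of these probe sets is higher in the low line and the brightest is higher in the high line. Genes of the reverse kind are not drawn. Among all 58 genes called in both directions, the brightest is lower at high FASN in 22 and the dimmest is higher in 21.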

How the data were processed

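Heart RNA (RNeasy Midi kit) was made into biotin-labelled cRNA and hybridised to 6 Affymetrix arrays, 1 colour each, per the labels' protocols. The values analysed are the deposited linear intensity of each probe set on each array, produced with GCOS per the submitters' processing notes; the version, summary method and scaling target are not stated there. Scanner files and present calls were not used here, so words such as dim and near background rest on the intensity alone.

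Array controls (64 of 45101 probe sets) were set aside. Among the remaining 45037, the supplied platform annotation gave 1 symbol for 34945, more than 1 for 932 and no entry for 9160, and probe sets of the last kinds were tested without being named. Intensities entered as log2(signal + 16) with no rescaling. The filter was a mean signal of 49.0, the median, which left 22519 probe sets. All 6 arrays went into 1 limma 3.58.1 model (R 4.3.3) with a mean per group and trended empirical Bayes variances, with 3 residual and 6.30 prior degrees of freedom. Tests were two-sided, adjusted by Benjamini-Hochberg over all tested probe sets, and called at an adjusted p below 0.05. The script was tested on simulated data. The number of arrays limits the precision.

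The comparison, the members and the 47 gene lists were chosen with earlier results of these data known. A listed gene was read by its brightest tested probe set, and lists are given by counts and medians with no set test. The text names Fasn, the 12 largest differences each way, the 8 probe sets each way with the largest opposite differences from control, up to 4 members of a list by p, and a panel of 25 genes. Other names are marked as chosen after their values were seen, or are list members that did not pass or were below the filter. Alternatives covered scaling, pseudocount, filter, variance model, the arrays fitted and the replicate block. Same-numbered arrays did not deviate together (correlations of 0.00151 to 0.0363). Windows at gene starts came from RefSeq (GRCm38.p6) for all 12 genes looked up. Plots used matplotlib 3.10.9 and Python 3.11.15.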

Additional observations from a re-analysis of the deposited data

Results flagged for a closer look

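The difference between each line and control went in opposite directions in 98 probe sets, where the calls against control had opposite signs. For these the arrays of one line lay above control and those of the other below it. The probe sets were chosen for that pattern, so the size of the difference between the lines carries no test. Among the named genes with the high line above control, the high minus low difference on the log2 scale was 1.16 for Clec3b, 1.12 for Smco1, 1.22 for Grb2, 1.11 for Hdac5, 0.85 for Neurl2, 1.66 for Prxl2a, 0.92 for Klf12 and 0.78 for Mgll. Among those with the high line below control it was -2.08 for Gas5, -1.45 for Nfkbiz, -1.60 for Per3, -1.04 for Son, -1.44 for Khdc4, -0.96 for Srsf1, -0.89 for Bdp1 and -1.12 for Fgl2.

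The control probe sets for 18S ribosomal RNA lie outside the tested set and carried a signal above control in the high line, by 0.12 at the 3′ end, 0.22 at the 5′ end and 0.17 in the middle on the log2 scale. In the low line the middle probe set read 12352 and 12019 against 23712 and 22879 in control. What this does to the other values was not tested.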

How the results depend on the processing

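The 4165 calls between the lines became 1444 with an untrended variance model, 2621 with 1 probe set per gene, 326 with a log2 difference of at least 1, and between 1556 and 4154 with 1 array left out. Quantile normalization gave 4033 (3797 shared with the 4165), cyclic loess 4074 (3854 shared), median centring 4106 (3995 shared) and no filter 2899. Calls higher in the high line were 52.1% at the deposited scaling, 49.0% with quantile normalization, 48.7% with cyclic loess and 55.4% with median centring. The 98 opposite-direction probe sets became 43 without a filter, 18 and 22 with a control array of its own for each line, 7 with an untrended variance model, and between 15 and 263 with 1 array left out. With the replicate number as a block, although the numbers were not found to pair the arrays, 4297 probe sets were called between the lines and 101 in opposite directions. Of 183 named probe sets, Pln and Cox8b turned direction with quantile normalization, to -0.15 and -0.018, and 14 others lost their call. An untrended model ended 75 of the calls and leaving out low-line array 1 or 2 ended 44 and 39. Fasn kept its direction and call under every alternative run. With the untrended model 57 of 94 list counts moved beyond 1.5 times. Genes called higher went from 33 to 1 in oxidative phosphorylation, from 24 to 1 in the cytosolic ribosome and from 18 to 6 in the sarcomere. Collagens called lower went from 9 to 4, while the lipogenesis count stayed at 9 higher. The cause of these changes was not tested, except that some alternatives use fewer arrays or probe sets by construction.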

Other observations

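The Srsf family of splicing factors was looked at after the values of Srsf1 had been seen, so it is given as a description. Of 9 members, each read by its brightest probe set, 0 were higher and 3 lower at high FASN, with a median of -0.25 that stayed negative under the other 3 scalings. The 3 were Srsf1 at -0.52, Srsf10 at -0.48 and Srsf11 at -0.27. Srsf3, Srsf4, Srsf5 and Srsf9 lay between 0.075 and 0.14 and did not pass. Srsf5 read 4621 and 4340 at high FASN, 4161 and 3987 at low FASN and 2118 and 1931 in B6, so that both lines lay above control.

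The share of genes whose neighbour was also called lay near the background. In the gene order of RefSeq, 123 of 11476 placed genes (1.07%) differed by at least 1 on the log2 scale, and the next tested gene did so for 0 of them. Without the size limit 2364 genes were called (20.6%), and the next gene was also called for 506 of these (21.4%).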
